A study of Mus musculus with 4 samples.

Results

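The genes described here are the Wnt ligands, the machinery that lipidates and exports them, the Frizzled receptors and their co-receptors, the alternative Wnt receptors and the secreted antagonists, as expressed in mouse embryonic stem cells (mESCs). They are a list of 42 genes picked by name, matched to the Ensembl identifiers of a deposited table of 37310 genes: 18 Wnt ligands, 2 genes of ligand processing, 10 Frizzled genes, 2 Lrp co-receptors, 3 alternative receptors and 7 secreted antagonists. All 42 had a row, and 28 had a mean normalized value of at least 10 over the 4 libraries, the level needed to be tested; the other 14 are given by their reads.

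The study asked what the core clock factor Bmal1 does in pluripotent cells, and compared mRNA of wild-type and Bmal1-/- cells. Both are JM8 mESCs, a line of C57BL6/N strain, cultured without feeders on gelatin in serum-free 2i medium with LIF, and each genotype gave 2 libraries. The 2 inhibitors of that medium, 1 µM PD0325901 against Mek and 3 µM CHIR99021 against Gsk3, were present for every library, so β-catenin, which Gsk3 marks for destruction, was chemically shielded from that mark in both genotypes. The Bmal1-/- cells are 1 CRISPR/Cas9 clone of the parental line with frameshift indels in exon 5, so the clone and the genotype cannot be told apart, and p-values measure the spread between libraries of 1 line each.

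Wnt proteins are secreted, lipid-carrying signals. The membrane enzyme Porcn attaches the lipid and Wls carries the finished ligand to the cell surface, where it binds a Frizzled receptor together with Lrp5 or Lrp6 to hold β-catenin stable, or Ror1, Ror2 or Ryk to signal without β-catenin. Secreted frizzled-related proteins and Wif1 bind the ligands outside the cell, and Dkk1 blocks the Lrp co-receptors. In mESCs, Wnt signalling is known for supporting self-renewal, a role that the Gsk3 inhibitor of 2i medium takes over.

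Reads on genes numbered between 21504265 and 23329034 per library, and 3 reads, the floor used here, corresponded to a normalized value between 2.82 and 3.19. The mRNA of the targeted gene, listed under its symbol Arntl, was at 678 and 733 in the wild-type libraries and at 556 and 590 in those labelled Bmal1-/-, or 81.2% of wild-type (log2 fold change -0.30, SE 0.07, adjusted p 0.0011 by limma), lower without overlap but far above 0. What set this level was not tested. The level does not show the genotype, and the labels are cited as given. All 10 pluripotent stem cell markers were expressed; their summed values were 119675 and 116840 in wild-type and 125481 and 127411 under the Bmal1-/- label, with 4 called higher, 5 called lower and Dppa3, at 51.7% of wild-type, changed most. Of 10 fibroblast markers, 6 were at 3 reads or fewer in every library, Dcn and Lum at 0. Over all 14510 genes tested, 52.6% passed an adjusted p under 0.05 (24% higher and 28.6% lower under the Bmal1-/- label) and 7.21% also passed 2-fold (5.75% higher and 1.45% lower). Both libraries with the Bmal1-/- label lay above both wild-type libraries for 34.6% of genes and below both for 41.4%. These shares are the background for every count given here. In bulk RNA, fewer cells of a type and less RNA per cell cannot be told apart.

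Of the 28 members tested, 16 (57.1%) passed an adjusted p under 0.05, near the 52.6% of all genes. Their direction was 12 higher and 4 lower with the Bmal1-/- label, beside 24% and 28.6% of all genes, and the median log2 fold change was 0.17 over the 28 members and -0.03 over all genes tested. The split of calls moved with the scaling: quantile normalization gave 11 members higher and 6 lower (3245 and 4000 of all genes), and equal library totals gave 14 and 3 (4200 and 3194 of all genes, so that higher genes were then the more frequent). By class, 2 of 6 tested ligands fell and 1 rose, while 6 of 10 Frizzled genes rose and 1 fell; the difference between the classes was not tested. Past 2-fold there were 3 members, Fzd4 and Wnt9a higher and Wnt3a lower. Both libraries with the Bmal1-/- label lay above both wild-type libraries for 14 of the 28 members and below both for 6, beside 34.6% and 41.4% of all genes. The labels overlapped for 8 members.

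**Figure D1:**
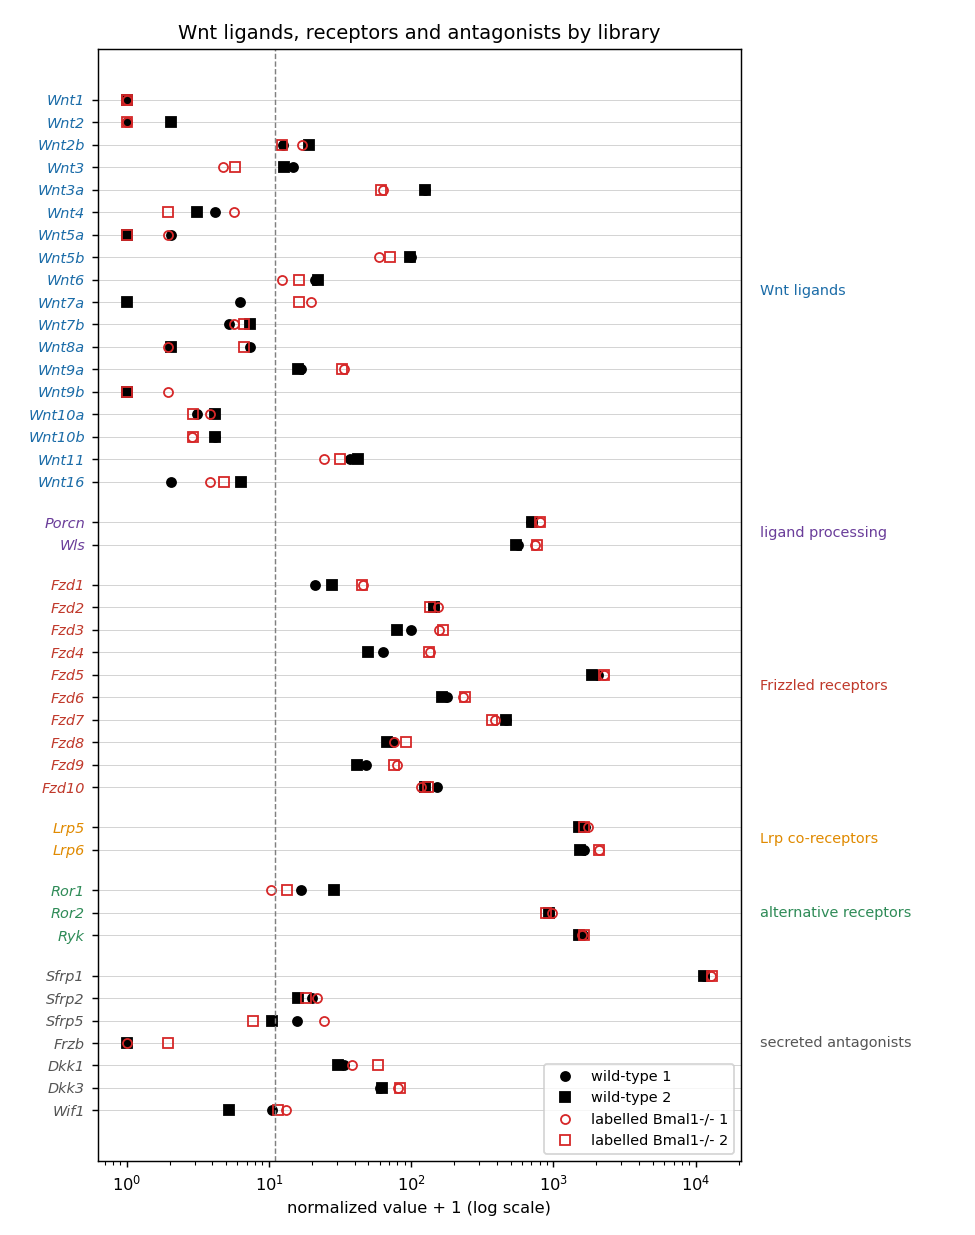
Normalized value plus 1 (log axis) of each of the 42 genes in each library; filled black symbols are wild-type, open red symbols are labelled Bmal1-/-, and the dashed line marks a value of 10, the mean needed to be tested. The Wnt ligands sit at or below a value of 124, while Sfrp1 lies between 11383 and 12964 and Fzd5, Lrp5, Lrp6 and Ryk lie at 1512 or higher.

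Ligand mRNA was scarce. Of the 18 ligands, 6 (Wnt1, Wnt2, Wnt5a, Wnt9b, Wnt10a and Wnt10b) had 3 reads or fewer in all 4 libraries, and Wnt1 had no read in any, which at this depth bounds it below a value of 2.82 to 3.19 per library. Wnt4, a ligand of kidney and gonad development, had 3 and 2 reads in wild-type and 5 and 1 under the Bmal1-/- label, so it was at or under 3 reads in both wild-type libraries. Wnt7b, Wnt8a and Wnt16 never passed 6 reads: Wnt7b had 4 and 6 reads against 5 and 6, Wnt8a 6 and 1 against 1 and 6, and Wnt16 1 and 5 against 3 and 4, with the wild-type pair first. The labels overlapped for each of these 3 ligands, and no difference was detectable at this depth. Wnt7b is also a target of RT-qPCR primers, which match an exon of the gene on chromosome 15 of mm9. These primers are shown because they place an assay within a transcript that gave at most 6 reads here; lower case marks the whole primer, with no part singled out.
forward primer, minus strand, chr15:85389513-85389532: agccaacatcatctgcaaca
reverse primer, plus strand, chr15:85389339-85389357: ggagttcttgcccgaagac

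Wnt3a was the ligand with the highest level per kb of exon in wild-type and fell under the Bmal1-/- label. It is the classical activator of the β-catenin branch and is itself used to maintain mESCs. Wnt3a (ENSMUSG00000009900, minus strand, chr11:59061535-59104254 in mm9) was at 123 and 124 in wild-type and at 62.0 and 60.1 under the Bmal1-/- label. The pairs were far apart and each was tight, with 117 and 117 reads against 66 and 63. The log2 fold change was -1.01 (SE 0.16, adjusted p 1.6e-05 by limma). The log2 fold change ran from -1.20 to -0.95 over the scalings tried, so Wnt3a lay just past the 2-fold threshold here and short of it under some scalings, and it kept an adjusted p under 0.05 in every alternative run in which it was tested.

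Wnt5b was the next ligand by level per kb and fell as well. It is known for signalling without β-catenin in cartilage and fat. Its values were 99.0 and 96.7 in wild-type and 58.2 and 69.6 under the Bmal1-/- label, without overlap, a log2 fold change of -0.61 (SE 0.17, adjusted p 0.0043 by limma). DESeq2 gave an adjusted p of 0.093, and without replicate 1 labelled Bmal1-/- limma gave 0.065.

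Wnt9a rose. It is a ligand known from joint and cartilage formation, and its gene (ENSMUSG00000000126, plus strand, chr11:59120430-59147054 in mm9) starts 16.2 kb from the start of Wnt3a, the 2 genes pointing away from each other on chromosome 11. Wnt9a was at 15.8 and 14.9 in wild-type and at 32.9 and 31.5 under the Bmal1-/- label, again without overlap. The log2 fold change was 1.02 (SE 0.29, adjusted p 0.0058 by limma), 0.73 after quantile normalization. The wild-type values rest on 15 and 14 reads; DESeq2 gave an adjusted p of 0.087, and without replicate 1 labelled Bmal1-/- limma gave 0.055. These neighbours therefore moved in opposite directions, as read by limma with all libraries.

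Wnt2b, Wnt6 and Wnt11 were tested and not called. Wnt6, a ligand of mesenchymal to epithelial conversion, was at 20.0 and 21.2 in wild-type and at 11.3 and 15.3 under the Bmal1-/- label. Wnt11, a ligand of the branch that steers cell movement, was at 35.8 and 41.4 against 23.5 and 30.5. In both cases the pairs did not overlap, the libraries with the Bmal1-/- label being lower, yet the adjusted p was 0.14 for Wnt6 and 0.10 for Wnt11 by limma. Quantile normalization alone among the alternatives brought them under 0.05, at 0.031 and 0.018. Wnt2b was at 11.6 and 18.1 against 16.0 and 11.4, with overlap and an adjusted p of 0.86.

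Wnt3 and Wnt7a were below the mean of 10 and so were not tested in the main comparison, although their pairs did not overlap. Wnt3, needed for the primitive streak in the embryo, had 13 and 11 reads in wild-type and 4 and 5 under the Bmal1-/- label. When every gene with a mean of at least 1 was tested, its log2 fold change was -1.38 (SE 0.36, adjusted p 0.026 by limma). Wnt7a, a ligand of limb and neural patterning, had 5 and 0 reads in wild-type and 20 and 16 under the Bmal1-/- label. Its adjusted p was 0.039 with a mean of at least 1 and 0.11 with no filter, and no fold is given because a wild-type library held no read.

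Taken per kb of exon, the summed level of all 18 ligands was 124 and 123 in wild-type and 83.5 and 90.1 under the Bmal1-/- label. The composition shifted with it. Wnt3a made up 36.3% of the wild-type sum and 25.5% of the sum under the Bmal1-/- label, and Wnt5b 30.2% and 28.1%. Wnt9a went from 3.73% to 11.1%, and Wnt7a, with 5 and 0 reads in wild-type, from 0.67% to 6.18%. Wnt3 went from 3.34% to 1.60%. These shares are of levels per kb and carry no test.

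**Figure D2:**
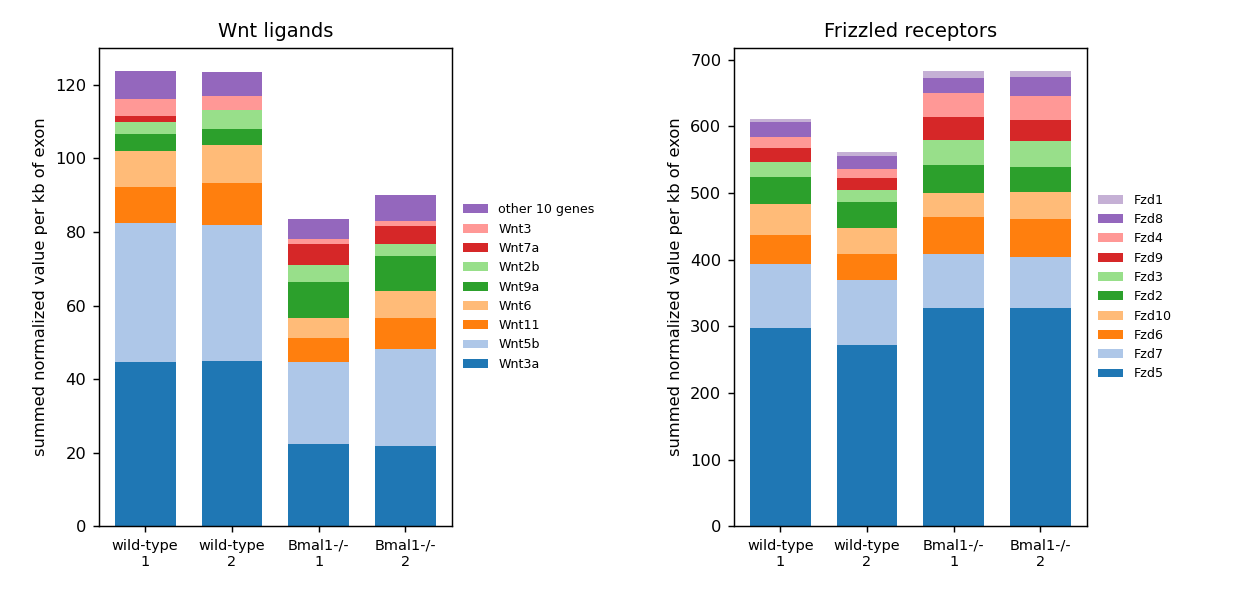
Normalized value per kb of exon, summed over the 18 Wnt ligands (left) and the 10 Frizzled genes (right) and stacked by gene, 1 bar per library. The ligand bars are lower under the Bmal1-/- label (83.5 and 90.1 against 124 and 123) and the Frizzled bars higher (683 and 683 against 611 and 562), with Fzd5 the largest segment in each Frizzled bar.

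The promoters of these 3 called ligands are shown because Wnt3a and Wnt9a are neighbours that moved in opposite directions and because Wnt9a and 1 of the 3 annotated starts of Wnt5b hold a motif that was searched. Each is 300 bases, from 250 before to 50 after the annotated start, from RefSeq on GRCm38.p6, a build whose coordinates differ from the mm9 positions above. The search covered CACGTG, the E-box that Bmal1 and its partner Clock bind, and CTTTGAT, the core of the site bound by the TCF/LEF factors that act with β-catenin, each on both strands; no member promoter held both. Capitals mark a match. CACGTG occurs in 7.15% of all 32851 promoters of that length and CTTTGAT in 3.73%. A match is only a run of letters, and a promoter without one lacks those letters in this window alone. Wnt9a held CACGTG 228 bases before its start, and Wnt3a held neither motif. Wnt5b has 3 promoters in the table: the one printed held CTTTGAT 71 bases before its start, and the other two, at chr6:119467162-119467461 and chr6:119544298-119544597, held neither motif.
Wnt3a, minus strand, chr11:59290702-59291001: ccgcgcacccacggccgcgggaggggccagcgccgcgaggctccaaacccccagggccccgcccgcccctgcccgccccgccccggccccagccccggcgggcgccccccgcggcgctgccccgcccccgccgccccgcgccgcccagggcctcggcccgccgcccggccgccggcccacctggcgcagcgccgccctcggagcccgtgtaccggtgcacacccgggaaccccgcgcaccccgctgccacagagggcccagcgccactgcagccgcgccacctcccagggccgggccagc
Wnt9a, plus strand, chr11:59306680-59306979: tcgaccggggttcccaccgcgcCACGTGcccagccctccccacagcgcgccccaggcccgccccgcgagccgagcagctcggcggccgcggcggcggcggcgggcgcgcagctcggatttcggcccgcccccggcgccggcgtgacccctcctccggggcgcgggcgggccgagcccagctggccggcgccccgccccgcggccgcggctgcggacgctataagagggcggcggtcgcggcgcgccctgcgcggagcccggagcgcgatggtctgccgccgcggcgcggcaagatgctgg
Wnt5b, minus strand, chr6:119449337-119449636: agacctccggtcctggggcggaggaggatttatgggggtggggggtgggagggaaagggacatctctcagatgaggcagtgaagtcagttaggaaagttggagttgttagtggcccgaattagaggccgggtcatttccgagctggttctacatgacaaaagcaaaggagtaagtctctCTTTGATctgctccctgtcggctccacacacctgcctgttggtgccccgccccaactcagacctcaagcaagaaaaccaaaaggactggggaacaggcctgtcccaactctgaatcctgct

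Both genes that every Wnt ligand depends on were expressed and rose slightly. Wls, the carrier that brings Wnt proteins to the surface, was at 562 and 541 in wild-type and at 746 and 766 under the Bmal1-/- label, without overlap, a log2 fold change of 0.46 (SE 0.07, adjusted p 8.3e-06 by limma). Porcn, the acyltransferase, was at 694 and 702 against 799 and 807. Its log2 fold change was 0.20 (SE 0.06, adjusted p 0.0097 by limma). The Porcn pairs did not overlap either, but the adjusted p was 0.054 without replicate 1 labelled Bmal1-/- and 0.073 without replicate 2 labelled Bmal1-/-. Per kb of exon, Porcn stood at 233 and 268 and Wls at 167 and 229 (wild-type mean first), above each ligand.

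All 10 Frizzled genes were expressed, and 6 rose, 1 fell and 3 did not pass. Fzd4 changed most. It is the receptor known for retinal vessel growth, where it answers Norrin as well as Wnts, and its gene (ENSMUSG00000049791) lies on the plus strand at chr7:96552876-96558620 in mm9. Fzd4 was at 62.2 and 48.9 in wild-type and at 134 and 133 under the Bmal1-/- label. The 2 labels were well apart, a 2.4-fold rise (log2 fold change 1.26, SE 0.17, adjusted p 2.3e-06 by limma). It stayed past 2-fold in every alternative in which it was tested, between 1.06 and 1.43 on the log2 scale over scalings and left-out libraries.

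Fzd3, Fzd9 and Fzd1 rose by less than 2-fold. Fzd3, needed for axon guidance together with the planar polarity genes, was at 98.0 and 78.6 in wild-type and at 157 and 165 under the Bmal1-/- label (log2 fold change 0.87, SE 0.14, adjusted p 3.8e-05 by limma). Fzd9, a receptor of bone and hippocampal precursors, was at 47.4 and 40.4 against 78.9 and 74.4 (log2 fold change 0.79, SE 0.19, adjusted p 0.0015 by limma). Fzd1 was at 20.0 and 26.6 against 45.1 and 43.9, with an adjusted p of 0.0046 by limma and 0.071 by DESeq2. No library labelled Bmal1-/- overlapped wild-type for these 3 receptors. Without wild-type replicate 1, Fzd3 reached a log2 fold change of 1.02 and joined the members past 2-fold.

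Fzd5 was the main Frizzled of these cells. It is the receptor needed for yolk sac vessels and the Paneth cells of the gut, and it held 48.5% of the summed Frizzled level per kb in wild-type and 47.9% under the Bmal1-/- label. Its values were 2054 and 1879 in wild-type and 2261 and 2259 under the Bmal1-/- label, a small rise without overlap (log2 fold change 0.20, SE 0.05, adjusted p 0.0021 by limma). Limma without the intensity trend gave an adjusted p of 0.092. Fzd6, a planar polarity receptor of skin and hair, rose from 178 and 164 to 229 and 237, with an adjusted p of 0.0016.

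Fzd7 ran the other way. It ranked after Fzd5 by level per kb in both labels and is known as a Wnt receptor of pluripotent cells. Fzd7 was at 462 and 465 in wild-type and at 387 and 366 under the Bmal1-/- label, without overlap, a log2 fold change of -0.30 (SE 0.08, adjusted p 0.0030 by limma and 0.082 by DESeq2). Its share of the summed Frizzled level per kb was 16.5% in wild-type and 11.5% under the Bmal1-/- label, while that of Fzd4 was 2.57% and 5.30%.

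The 3 Frizzled genes that did not pass were Fzd2, Fzd8 and Fzd10. Fzd2, a receptor for Wnt5a, was at 144 and 143 in wild-type and at 154 and 134 under the Bmal1-/- label, with overlap. Fzd8 was at 73.7 and 66.9 against 75.2 and 91.5, the second pair being higher without overlap but with an adjusted p of 0.26. Fzd10 was at 152 and 123 against 116 and 131, with overlap. A second row of that symbol, whose exons overlap it on the same strand, was at 0 in all libraries. Summed per kb, the 10 receptors stood at 611 and 562 in wild-type and at 683 and 683 under the Bmal1-/- label.

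The promoters of Fzd4 and Fzd9 are shown as the receptor that changed most and the only Frizzled promoter with an E-box among those in the RefSeq table. Of the 42 members, 29 had an entry, with 32 promoters. CACGTG was in 3 of the 32 (9.38%, those of Fzd9, Wif1 and Wnt9a) beside 7.15% of all promoters, and CTTTGAT in 2 (6.25%, Wnt5b and Wnt11) beside 3.73%. Fzd9 held its E-box 88 bases before the start and Fzd4 held neither motif.
Fzd4, plus strand, chr7:89404116-89404415: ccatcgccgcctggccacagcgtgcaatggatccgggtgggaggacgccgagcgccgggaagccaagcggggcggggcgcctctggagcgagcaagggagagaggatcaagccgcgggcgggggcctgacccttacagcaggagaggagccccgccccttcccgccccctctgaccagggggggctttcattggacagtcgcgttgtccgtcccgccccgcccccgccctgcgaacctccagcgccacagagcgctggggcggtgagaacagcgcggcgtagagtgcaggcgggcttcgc
Fzd9, minus strand, chr5:135250998-135251297: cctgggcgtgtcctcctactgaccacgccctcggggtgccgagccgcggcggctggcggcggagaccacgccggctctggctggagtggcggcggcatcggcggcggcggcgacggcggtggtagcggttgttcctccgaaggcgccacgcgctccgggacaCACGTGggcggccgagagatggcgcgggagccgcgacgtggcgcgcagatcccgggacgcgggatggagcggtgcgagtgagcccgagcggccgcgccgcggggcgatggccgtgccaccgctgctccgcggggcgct

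**Figure D3:**
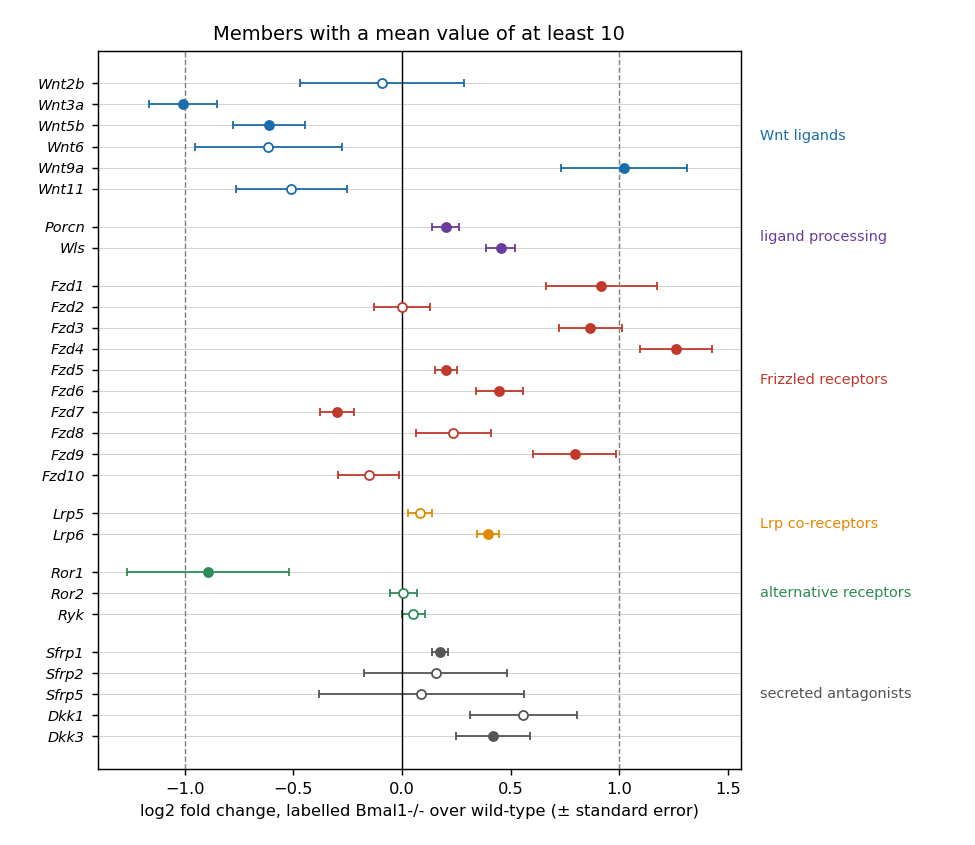
Log2 fold change of the 28 tested members, libraries with the Bmal1-/- label over wild-type on log2(value + 1), with bars of 1 standard error; filled points passed an adjusted p under 0.05 (limma) and dashed lines mark 2-fold. Fzd4 (1.26), Wnt9a (1.02) and Wnt3a (-1.01) lie past the dashed lines, and the short bars of Lrp6 (0.40) and Sfrp1 (0.18) go with their high values.

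Of the co-receptors, Lrp6 rose and Lrp5 did not pass. Lrp6, whose phosphorylated tail takes Axin away from β-catenin, was at 1649.8 and 1533 in wild-type and at 2101 and 2089 under the Bmal1-/- label. The pairs were apart, with a log2 fold change of 0.40 (SE 0.05, adjusted p 1.6e-06 by limma). Lrp5, its paralogue known from bone mass, was at 1669.8 and 1515 against 1734 and 1633, with overlap, and had a log2 fold change of 0.08 (SE 0.06, adjusted p 0.23 by limma). Per kb of exon, Lrp5 was the higher of the pair, at 308 in wild-type and 325 under the Bmal1-/- label, against 162 and 213 for Lrp6. Lrp5 passed with equal library totals, at an adjusted p of 0.036, and without wild-type replicate 1, at 0.024.

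Among the alternative receptors, Ryk and Ror2 were abundant and level. Ryk, a receptor with an inactive kinase domain, was at 1600.2 and 1512 in wild-type and at 1586 and 1640.2 under the Bmal1-/- label (log2 fold change 0.05, SE 0.05, adjusted p 0.42 by limma). Ror2, the receptor for Wnt5a in limb and skeleton, was at 925 and 933 against 978 and 891 (log2 fold change 0.01, SE 0.06, adjusted p 0.93 by limma). Both overlapped between the labels. Ror1, a paralogue of Ror2, was low, at 15.8 and 27.6 in wild-type and 9.39 and 12.4 under the Bmal1-/- label. Its pairs did not overlap, and its log2 fold change of -0.89 (SE 0.37) passed narrowly, at an adjusted p of 0.0496 by limma. That call was lost under DESeq2 (adjusted p 0.25) and, by limma, with no filter (0.16) and with a mean of at least 1 (0.10). It was lost as well with a pseudocount of 0.5, median-ratio size factors, equal library totals and no intensity trend. Leaving out wild-type replicate 2 or either library labelled Bmal1-/- also ended it. The log2 fold change ran from -1.28 to -0.51 with a library left out.

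Sfrp1 was by far the most abundant member. This secreted frizzled-related protein, which carries a Frizzled-like domain that binds Wnts, made up 98.2% of the summed antagonist level per kb in wild-type and 97.8% under the Bmal1-/- label. Sfrp1 (ENSMUSG00000031548, plus strand, chr8:24521974-24560104 in mm9) was at 11474 and 11383 in wild-type and at 12869.7 and 12964 under the Bmal1-/- label. The rise was small and the pairs did not overlap (log2 fold change 0.18, SE 0.04, adjusted p 0.000435 by limma, 0.062 without the intensity trend). Per kb of exon it stood at 2614 in wild-type and 2954 under the Bmal1-/- label, beside 285 and 327 for Fzd5, the highest Frizzled, and 44.8 and 22.1 for Wnt3a.

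The other antagonists were low. Dkk3, a member of the Dickkopf family that does not bind Lrp6 as Dkk1 does, was at 59.0 and 61.6 in wild-type and at 79.8 and 82.0 under the Bmal1-/- label (log2 fold change 0.42, SE 0.17, adjusted p 0.047 by limma). Its pairs did not overlap, yet leaving out any 1 of the 4 libraries ended the call, with adjusted p between 0.059 and 0.18, and DESeq2 gave 0.24. Dkk1, the Lrp antagonist that shapes the head, was at 32.7 and 29.7 against 37.6 and 57.2, without overlap, and did not pass (log2 fold change 0.56, SE 0.25, adjusted p 0.063 by limma). It passed in edgeR, at 0.037, and by limma with equal library totals and with the replicate block. With a library left out, its log2 fold change ran from 0.26 to 0.86. Sfrp2 was at 19.0 and 14.9 against 20.7 and 17.2, and Sfrp5 at 14.7 and 9.56 against 23.5 and 6.68, both with overlap. Wif1 had 9 and 4 reads against 13 and 11, and Frzb had 1 read in all 4 libraries together.

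**Figure D4:**
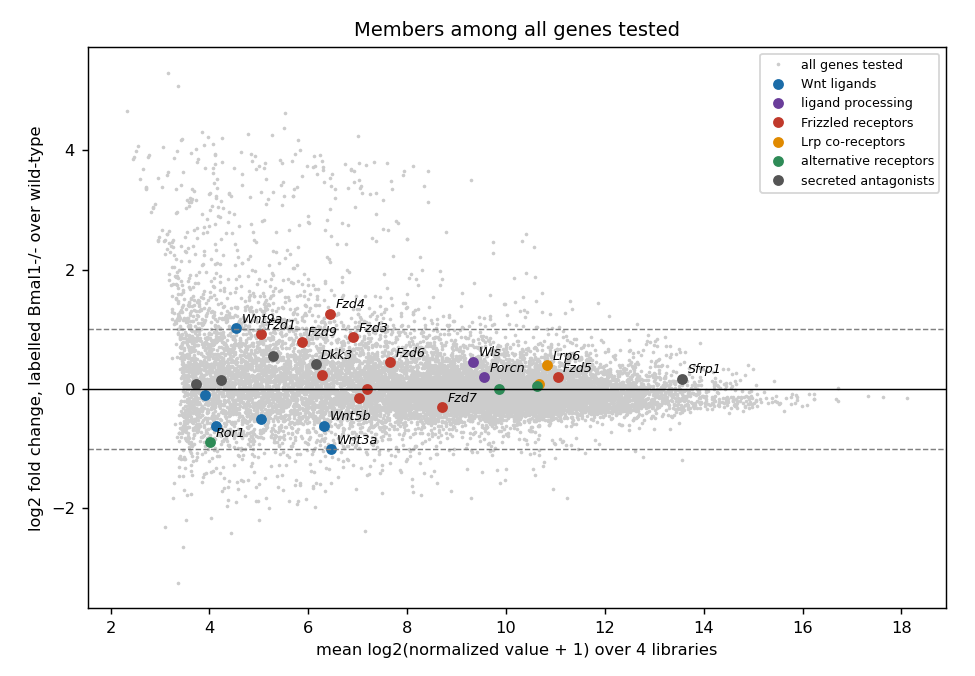
Mean log2(value + 1) over the 4 libraries against log2 fold change, libraries with the Bmal1-/- label over wild-type, for all 14510 genes tested (grey) with the 28 tested members in colour; called members are named and dashed lines mark 2-fold. The members lie within the cloud of all genes, 25 of them inside the 2-fold lines.

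Outside these 42 genes, a hand-written list of 101 other Wnt pathway genes was read for context, of which 87 were tested. Of these, 26 rose and 23 fell, 56.3% in all beside 52.6% of all genes, and 4 passed 2-fold. Among 16 tested membrane and extracellular genes, 6 rose and 6 fell (75% called). Gpc3, a glypican that holds ligands at the surface, fell (735 and 677 in wild-type against 319 and 340, log2 fold change -1.09, SE 0.08, adjusted p 2.9e-10 by limma). Notum, the esterase that removes the lipid from Wnts, fell (1628 and 1560.5 against 973 and 959, log2 fold change -0.72, SE 0.05, adjusted p 7.3e-10 by limma). Lgr6, an R-spondin receptor, rose from 12.6 and 8.50 to 34.8 and 25.7 (log2 fold change 1.44, SE 0.34, adjusted p 0.0013 by limma). In each of these 3 genes the labels did not overlap.

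Of 32 tested genes of the destruction complex and cytoplasm, 10 rose and 5 fell (46.9% called). Over all genes tested, 52.6% were called, 24% higher and 28.6% lower. Dact3, an antagonist of Dishevelled, rose past 2-fold, from 107 and 106 to 300 and 267 (log2 fold change 1.40, SE 0.12, adjusted p 4.0e-09 by limma). Tnks, the tankyrase that marks Axin for degradation, rose from 1930.0 and 1704 to 3230 and 3205 (log2 fold change 0.83, SE 0.05, adjusted p 7.3e-11 by limma), and Apc, a scaffold of the complex, from 3446 and 3182 to 5060 and 5147 (log2 fold change 0.62, SE 0.04, adjusted p 4.4e-10 by limma). Of 23 nuclear effectors, 5 rose and 8 fell (56.5% called), near the share of all genes. Lef1, a DNA-binding partner of β-catenin, fell past 2-fold, from 191 and 131 to 70.5 and 64.8 (log2 fold change -1.21, SE 0.17, adjusted p 4.6e-06 by limma), and Ruvbl1 fell from 3130 and 2902 to 2255 and 2129. Of 16 tested planar cell polarity genes, 5 rose and 4 fell (56.25% called), again near that share. Daam1, a formin that binds Dishevelled, rose from 929 and 876 to 1523 and 1619. Ctnnb1, which encodes β-catenin, and Axin2, a feedback gene widely read as a reporter of β-catenin activity, are named here after their values were seen. Ctnnb1 was at 14854 and 14648 in wild-type and at 15663 and 15413 under the Bmal1-/- label, without overlap. Its log2 fold change of 0.07 (SE 0.04) had an adjusted p of 0.094 by limma and of 0.027 in both edgeR and DESeq2. Axin2 fell, from 1474 and 1366 to 1205 and 1124 (log2 fold change -0.29, SE 0.06, adjusted p 0.00029 by limma).

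Of the marker lists of other cell states, the two-cell-like one moved with the label as a whole. Each of the others held tested markers that were not called. Summed values of the 7 two-cell-like markers found in the table, genes of the rare state that resembles the two-cell embryo, were 202 and 257 in wild-type and 2736 and 2699 under the Bmal1-/- label, and all 7 rose past 2-fold. Of 6 tested neural markers, Tubb3, Map2 and Pax6 fell past 2-fold, Sox3 rose past 2-fold and 2 were not called. Tubb3 (2785 and 2512 against 1192 and 1088) carries most of the fall of the sum, from 4381 and 4144 to 2615 and 2428. Dcx and Fabp7 were at 0 in every library. Of 6 tested trophoblast markers, Tfap2c and Cdx2 fell, Ascl2 rose and 3 were not called; Tfap2c, at 1428.5 and 1444 against 576 and 541, carries the fall of the sum from 1828 and 1844 to 981 and 971, and Tpbpa was at 0 throughout. The fibroblast sum rose from 171 and 190 to 346 and 359. Most of that rise is carried by Pdgfrb (74.8 and 80.7 against 204 and 234), which rose with Thy1 while Col1a1 and Twist1 were not called. Primitive endoderm markers overlapped in their sums, 12202 and 12351 against 12282 and 11928. Those sums rest mostly on Sparc (11880 and 12009 against 11674 and 11351.5), which was not called. Of the 6 tested, Col4a1 and Sox17 rose past 2-fold, Gata4 rose, Sox7 fell past 2-fold and 2 were not called. Formative, primed and early mesoderm markers summed to 2868 and 2663 against 2269 and 2353. Most of that is Dnmt3b (2631 and 2421 against 2063 and 2160), the 1 called lower of 4 tested. The row used for Pou3f1, the protein-coding one of 2 with that symbol, was at 0 throughout. The part of these markers in the changes of the Wnt ligands, Frizzled genes and antagonists was not tested.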

How the data were processed

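The authors sequenced stranded poly(A) libraries as paired 75-bp reads and aligned them to mm9; the submitters' processing notes name bcl2fastq 2.18.0.12, cutadapt 1.9.1 and STAR 2.5.2b. The read counter and the annotation are not given in the sources used here. The deposited values are a normalized signal: reads per gene scaled by a TMM factor of the library, which the authors computed with NOISeq, neither raw counts nor log values. All values were whole multiples of 1 number per library (100%, tolerance 0.01 of a read), so whole reads were recovered. Levels per kb divide a value by the merged exon length of the gene in the mm9 annotation.

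R 4.3.3 and limma 3.58.1 were used to test log2(value + 1), with a linear fit per gene and variances moderated along the intensity (eBayes, trend on), 2 libraries against 2. The 14510 genes whose mean reached 10 were tested, with Benjamini-Hochberg adjustment over all of them. Log2 fold changes on this scale understate those of low genes. A call is an adjusted p under 0.05, and past 2-fold adds an absolute log2 fold change above 1. Every adjusted p in the text is of this kind unless edgeR 4.0.16 (quasi-likelihood) or DESeq2 1.42.0, both run on the whole reads, is named. The tests were tried on simulated data. Alternatives were other filters, pseudocounts and scalings, limma without the trend, a replicate block, those 2 tools and leaving out each library.

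All 42 members are accounted for; full statistics go to those past 2-fold, and in each class to the gene highest per kb and to up to 3 with the smallest adjusted p. Of the other pathway genes, those past 2-fold and up to 2 per list with the smallest adjusted p are named. Members and lists were chosen with earlier results of these data known, and the lists are hand-written, with no set test. Marker and pathway genes were matched by symbol or older symbol; 3 two-cell-like markers were not matched. The library titles carry the same experiment numbers in both genotypes. Same-numbered deviations from the label means correlated at -0.02 across the 14510 genes, which cannot show whether these libraries were paired. The main comparison did not pair them, and the replicate block was an alternative.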

Additional observations from a re-analysis of the deposited data

How the results depend on the processing

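No called member changed direction in any alternative. Over the single members tested, 383 outcomes stayed on the same side of the threshold in the same direction, 30 lost the call, 9 gained it and 11, all of members not called, changed sign. The 16 called members became 10 with DESeq2 and 8 with a mean of at least 100, where 13 members were tested, and ran from 12 to 17 with a library left out. The 3 members past 2-fold became 5 with a mean of at least 1, which adds Wnt3 and Wnt7a. For Wnt7a a wild-type library held 0 reads, so its fold there depends on the pseudocount. The 3 became 1 with a pseudocount of 10 and 1 with DESeq2. None of the 3 was tested with a mean of at least 100, their means being 92.4 (Wnt3a), 94.5 (Fzd4) and 23.8 (Wnt9a). With a library left out, the log2 fold change of Wnt3a ran from -1.03 to -0.99 and that of Wnt9a from 0.98 to 1.06, so neither was always past 2-fold. Without wild-type replicate 1, Fzd3 (1.02) and Ror1 (-1.28) also had log2 fold changes past 2-fold. The median log2 fold change of 0.17 was 0.088 with no filter and with a mean of at least 1, 0.23 with equal library totals, 0.11 with quantile normalization and 0.22 with DESeq2, and ran from 0.13 to 0.23 with a library left out. No scaling moved the median of all genes by 0.1. The 49 other pathway genes called became 29 without the intensity trend. Of the ligands, 10 in place of 6 were at 10 reads or fewer in all 4 libraries, and leaving out a library gave 6 to 7 at 3 reads or fewer. Quantile normalization turned Fzd2 to -0.14, Sfrp2 to -0.16 and Sfrp5 to -0.22. Leaving out a library spread Wnt2b from -0.39 to 0.21, Fzd2 from -0.10 to 0.10, Ror2 from -0.060 to 0.074, Sfrp2 from -0.0090 to 0.32 and Sfrp5 from -0.75 to 0.92. The cause of these changes was not tested. With the replicate block, 16 members were called, Dkk1 among them (adjusted p 0.049) and Dkk3 not (0.052), and the block changed no other member's call. Depth limits the ligands most, since 12 of the 18 lay below the mean needed to be tested.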
